A study of Mus musculus with 14 samples.

Results

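The receptors that tell a B cell where to stand in lymphoid tissue, and the G protein subunit that one of them needs, were followed across RNA-seq libraries of mouse spleen B cells. The set held 9 genes out of 41053 gene rows in each of 2 count tables: the sphingosine-1-phosphate (S1P) receptors S1pr1, S1pr2 and S1pr4, the oxysterol receptor Gpr183, the chemokine receptors Cxcr4, Cxcr5, Ccr6 and Ccr7, and Gna13. The genes were chosen by name for their role, with earlier results of these data known. All 9 passed the filter on low counts in each comparison. The germinal center (GC) B-cell table held 4 KO libraries (Tet2 knock-out by label, replicates 2, 3, 4 and 5) and 3 WT libraries (Tet2 wild type, replicates 1, 3 and 4). The lymphoma table held 2 libraries labelled shTet2, with a Tet2 knock-down genotype (replicates 1 and 2), and 5 control libraries labelled Tet2 wild type (replicates 1 to 5). All mice were C57BL/6, all cells came from spleen, and the sources used here name no other treatment. The TET2 enzyme adds oxygen to the methyl mark on cytosine in DNA. The sources used here do not give which part of Tet2 was deleted and in which cells, how GC cells were purified, how the lymphoma arose or whether replicates were separate animals, so p-values reflect only how these libraries vary, which may be technical.

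A germinal center is a temporary structure inside a B-cell follicle in which activated B cells divide, mutate their antibody genes and are selected. CXCL13 acting on CXCR5 holds B cells in follicles and the light zone, CXCL12 acting on CXCR4 draws them to the dark zone, and the CCR7 ligands draw them towards T cells. GPR183, also called EBI2, follows oxysterols to the follicle's outer edge and is turned down when B cells become GC cells. S1PR1 carries lymphocytes out of tissue towards the S1P of blood and lymph, while S1PR2 answers the same lipid by halting migration, through the alpha subunit encoded by Gna13. Loss of S1PR2 or of its G protein lets GC B cells spread, and the human genes for both are recurrently mutated in GC-derived lymphoma.

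The 4 KO GC libraries held 29487244 to 30330950 counts and the 3 WT GC libraries 27191862 to 30434184, while shTet2 lymphoma libraries held 9386084 to 14741588 and control lymphoma libraries 6691167 to 18598386. In the lymphoma libraries 12 rows of structural RNA took 45.1% to 54.2% of counts in shTet2 and 57.6% to 80.7% in control libraries, with no overlap. This left 5157039 to 6755256 counts in shTet2 and 1523020 to 6253565 in control libraries for all other genes. Whole-gene Tet2 levels did not check the labels: they were 1.46 to 1.79 RPKM in KO against 1.40 to 1.65 RPKM in WT libraries (log2 fold change 0.04, SE 0.13, edgeR adjusted p = 0.909) and 14.3 to 15.5 RPKM in shTet2 against 15.9 to 18.9 RPKM in control libraries (-0.21, SE 0.10, adjusted p = 0.295). KO, WT, shTet2 and control are therefore used below for the libraries so labelled. Summed B-cell markers lay between 9464 and 10090 CPM (counts scaled to library size) in GC libraries and between 6489 and 7469 CPM in lymphoma libraries. GC markers summed to 2754 to 3006 CPM in KO and 2511 to 3007 CPM in WT libraries, against 475 to 517 CPM in shTet2 and 293 to 373 CPM in control lymphoma libraries. Between KO and WT, 8 GC markers were tested, with 0 called higher and 1, Basp1, called lower in KO. Basp1 averaged 134 RPKM in KO and 194 RPKM in WT libraries (log2 fold change -0.60, SE 0.08, edgeR adjusted p = 0.000300). Mef2b, 1 of the 9 GC markers, was listed near 0 in all 4 groups, with 5 reads over the KO, 7 over the WT, 4 over the shTet2 and 5 over the control libraries. The defining T-cell marker Cd3e was near 0 in GC cells, at a mean of 0.0795 RPKM in KO and 0.0820 RPKM in WT libraries, while Cd5 averaged 1.40 RPKM in KO and 1.14 RPKM in WT libraries. In the GC table the 4 Y-linked genes summed to 196 to 216 CPM in KO and 105 to 127 CPM in WT libraries, and they had no reads in either lymphoma group. The part of this difference in the receptor values was not tested.

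The sequence before the transcription start was shown for the receptor that differed between the lymphoma groups (S1pr2), for a receptor that was lower in KO GC cells (Gpr183) and for Gna13. In each, capitals mark CG dinucleotides, the sites at which DNA is methylated and at which TET2 acts. The stretches are the 250 bases before the RefSeq start on GRCm38.p6, read 5′ to 3′ on the gene's strand.
S1pr2: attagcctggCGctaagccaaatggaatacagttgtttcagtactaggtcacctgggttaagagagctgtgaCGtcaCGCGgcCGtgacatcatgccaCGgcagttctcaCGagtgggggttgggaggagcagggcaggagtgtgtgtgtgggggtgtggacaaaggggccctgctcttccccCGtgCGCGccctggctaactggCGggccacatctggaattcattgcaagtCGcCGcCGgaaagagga
Gpr183: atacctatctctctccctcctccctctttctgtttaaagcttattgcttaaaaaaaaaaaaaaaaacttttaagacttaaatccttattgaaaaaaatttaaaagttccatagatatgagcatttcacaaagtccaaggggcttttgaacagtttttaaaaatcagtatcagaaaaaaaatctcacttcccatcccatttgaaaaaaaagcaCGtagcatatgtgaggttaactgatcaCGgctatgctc
Gna13: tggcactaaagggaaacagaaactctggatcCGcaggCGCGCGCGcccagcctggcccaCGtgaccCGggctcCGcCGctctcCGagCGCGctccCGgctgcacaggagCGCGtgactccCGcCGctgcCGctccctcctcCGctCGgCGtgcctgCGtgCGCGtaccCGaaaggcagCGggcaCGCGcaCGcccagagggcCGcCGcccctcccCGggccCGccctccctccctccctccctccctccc
The S1pr2 stretch is chr9:20976794-20977043 on the minus strand, the Gpr183 stretch chr14:121965194-121965443 on the minus strand, and the Gna13 stretch chr11:109362544-109362793 on the plus strand.

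The 3 stretches held 14, 2 and 33 CG dinucleotides for S1pr2, Gpr183 and Gna13. RefSeq promoter windows of 300 bases, which add the first 50 bases of the transcript, were matched for 6 of the 9 genes in 7 windows. CG counts in these windows were 40 for Gna13, 20 for Cxcr4, 18 for S1pr2, 10 and 2 for the 2 starts of Ccr6, 4 for Gpr183 and 1 for S1pr4, against a median of 7 over all 32851 windows. S1pr2 alone among the matched genes held the cyclic AMP response element TGACGTCA, at bases -181 to -174 before its start, a motif that 1.79% of all windows held on either strand. In the printed S1pr2 stretch it reads as tgaCGtca. The GC box GGGCGG was found in the windows of S1pr2, Cxcr4 and Gna13 and in 35.7% of all windows. The CCAAT box CCAAT was in none of the 7 windows and in 37.4% of all windows, and the TATA box TATAAA was in that of Cxcr4 and in 13.6% of all windows. The 4 motifs were searched on both strands and were chosen after the sequences had been read, TGACGTCA and GGGCGG each contain a CG, and DNA methylation itself was not measured in these libraries.

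Levels are given as RPKM, read counts per kilobase of exon, scaled for library size as in CPM, so that genes can be set beside each other. In KO GC cells the order of mean levels ran from S1pr2 (173 ± 6.56 RPKM, SD, n = 4) through Cxcr4, Cxcr5, Gna13, S1pr4, S1pr1, Ccr6 and Ccr7 to Gpr183 (4.57 ± 0.638 RPKM). In WT GC cells it ran from S1pr2 (180 ± 19.3 RPKM, SD, n = 3) through Cxcr5, Cxcr4, Gna13, S1pr1, S1pr4, Ccr7 and Ccr6 to Gpr183 (6.95 ± 0.956 RPKM). Neighbours whose ranges overlapped were Cxcr4 with Cxcr5 and Ccr6 with Ccr7 in KO cells, and in WT cells Cxcr5 with Cxcr4 and the whole run of S1pr1, S1pr4, Ccr7 and Ccr6. The confining receptor was therefore the most abundant and the follicle-edge receptor the least abundant of the set in both GC groups. In shTet2 lymphoma cells the order was Cxcr5 (162 ± 43.4 RPKM, SD, n = 2), Cxcr4, S1pr1, Gpr183, Ccr6, Ccr7, Gna13, S1pr4 and S1pr2 (22.1 ± 7.56 RPKM). In control lymphoma cells it was Cxcr5 (218 ± 8.39 RPKM, SD, n = 5), Cxcr4, S1pr1, Ccr7, Gpr183, Ccr6, Gna13, S1pr4 and S1pr2 (3.09 ± 1.81 RPKM). S1pr2 was thus last in both lymphoma groups, with a range that overlapped that of S1pr4 in shTet2 cells and a mean 10.3-fold below that of S1pr4, with no overlap, in control cells. The other neighbours that did not overlap were S1pr1 over Gpr183 and Gna13 over S1pr4 in shTet2 cells, and S1pr1 over Ccr7 and Ccr6 over Gna13 in control cells.

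**Figure D1:**
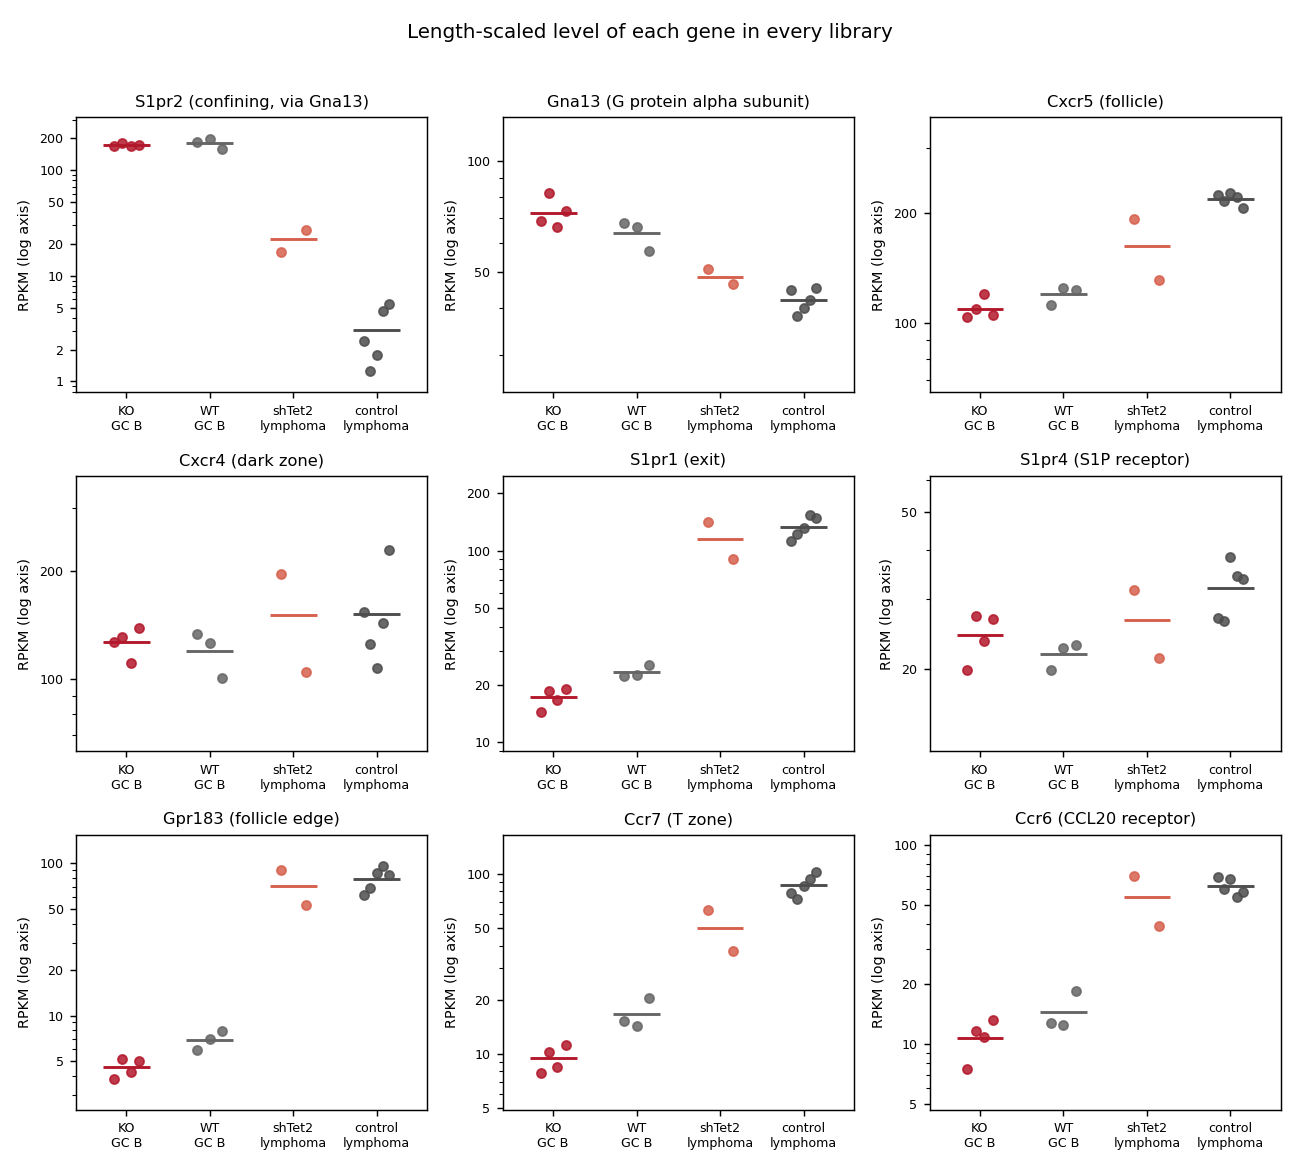
RPKM on a log axis for the 9 genes in each of the 14 libraries; points are libraries, horizontal lines are group means, and the KO and shTet2 groups stand left of WT and control. S1pr2 lies at 168 to 183 RPKM in KO and 159 to 197 RPKM in WT GC cells, and at 16.8 and 27.4 RPKM in shTet2 against 1.27 to 5.37 RPKM in control lymphoma cells.

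In GC B cells the positioning set was compared between the libraries labelled KO and those labelled WT. Of the 9 genes, 3 fell and 0 rose in KO cells (edgeR quasi-likelihood test, Benjamini-Hochberg adjusted p under 0.05): Ccr7, Gpr183 and S1pr1, the receptors for the T zone, the follicle edge and exit. The 3 are 33.3% of the set, where 4.57% of the 13600 genes tested were called lower, 1.92% were called higher and 6.49% either way. Since the set was chosen with earlier results of these data known, these shares only describe it. At an unadjusted p under 0.05 the counts were 5 lower and 0 higher, and DESeq2 and limma-voom each also called 3 lower and 0 higher. The median log2 fold change of the 9 genes was -0.20, beside 0.01 over all genes tested. KO and WT libraries did not overlap for the same 3 genes, all lower in KO, where 7.67% of all genes did not overlap and were lower and 13.4% did not overlap and were higher. In bulk RNA, fewer cells of a type and less RNA per cell cannot be told apart.

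Ccr7 was at 7.83, 10.3, 8.50 and 11.2 RPKM in KO libraries, against 15.2, 14.3 and 20.5 RPKM in WT libraries. Every KO library lay below every WT library, and WT replicate 4 was the highest. The log2 fold change was -0.89 (SE 0.15, 95% interval -1.21 to -0.56, edgeR adjusted p = 0.00232). Gpr183 was at 3.84, 5.20, 4.24 and 4.999 RPKM in KO libraries, against 5.96, 7.03 and 7.87 RPKM in WT libraries. Again no KO library reached the lowest WT library. Its log2 fold change was -0.67 (SE 0.14, 95% interval -0.97 to -0.37, edgeR adjusted p = 0.00827). S1pr1 was at 14.4, 18.4, 16.7 and 19.0 RPKM in KO libraries, against 22.1, 22.3 and 25.4 RPKM in WT libraries, also with no overlap. Its log2 fold change was -0.51 (SE 0.10, 95% interval -0.73 to -0.29, edgeR adjusted p = 0.00709). These 3 calls held with each library left out in turn, with adjusted p up to 0.0124 for Ccr7, 0.0498 for Gpr183 and 0.0417 for S1pr1. In 1 model of all 4 groups, Ccr7 was the only gene of the set still called lower, with adjusted p = 0.0732 for S1pr1 and 0.0791 for Gpr183.

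The receptors of the follicle and the dark zone were not called. Cxcr5 was at 104 to 120 RPKM in KO and 112 to 125 RPKM in WT libraries, which overlapped, with a log2 fold change of -0.20 (SE 0.08, 95% interval -0.38 to -0.02, edgeR adjusted p = 0.187). Cxcr4 was at 127, 131, 111 and 139 RPKM in KO and 133, 126 and 101 RPKM in WT libraries, and its groups overlapped throughout. The Cxcr4 log2 fold change was 0.02, with a 95% interval from -0.20 to 0.23. Ccr6, the receptor for CCL20 that memory-type and naive B cells carry, was at 7.47, 11.6, 10.8 and 13.2 RPKM in KO and 12.8, 12.5 and 18.4 RPKM in WT libraries. KO replicate 5 lay above the 2 lower WT libraries, and the log2 fold change of -0.50 (SE 0.19) had an adjusted p of 0.171 in edgeR. Without the filter on low counts Ccr6 was called (-0.49, edgeR adjusted p = 0.00802).

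The confining pair did not separate the GC groups. S1pr2 was at 170, 183, 168 and 172 RPKM in KO and 184, 197 and 159 RPKM in WT libraries, and the KO range lay within the WT range. Its log2 fold change was -0.12 (SE 0.09, 95% interval -0.31 to 0.06, edgeR adjusted p = 0.468). Gna13 was at 68.8, 81.7, 66.2 and 73.1 RPKM in KO and 68.1, 66.3 and 57.0 RPKM in WT libraries, which overlapped, with a log2 fold change of 0.12 (SE 0.09, 95% interval -0.08 to 0.32, edgeR adjusted p = 0.546). S1pr4, another S1P receptor, was at 19.8 to 27.1 RPKM in KO and 19.8 to 22.9 RPKM in WT libraries, with a log2 fold change of 0.09 (SE 0.11, edgeR adjusted p = 0.727). Gna13 shares 788 exon bases with the predicted gene Gm11696 on the other strand, and no strand option was used in counting, so reads of the 2 genes cannot be told apart there.

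Some markers of other cells were also lower in KO cells. Of 12 naive and memory B-cell markers 11 were matched and tested, and 4 fell in KO cells, among them Faim3 (-0.69), Cd55 (-0.46) and Cd80 (-1.38, all log2 and called by edgeR). None was called higher by edgeR, DESeq2 or limma-voom, with 2 higher and 6 lower at an unadjusted p under 0.05, and the naive B-cell genes Fcer2a (0.30) and Il4ra (0.28) had estimates above 0. Their summed level was 1722 to 1998 CPM in KO and 1950 to 2043 CPM in WT libraries. Of 16 myeloid markers 9 were tested and 8 fell in KO cells, with a summed level of 36.2 to 41.1 CPM in KO and 65.7 to 86.7 CPM in WT libraries. Elane was at 0 in both groups, and the macrophage gene Emr1 averaged 1.70 RPKM in KO and 4.11 RPKM in WT libraries. T-cell markers summed to 138 to 165 CPM in KO and 185 to 234 CPM in WT libraries. Of these Lck held most, at a mean of 51.1 RPKM in KO and 71.0 RPKM in WT libraries, and it was the 1 called of 6 tested. Log2 estimates of the others lay below 0 for Cd3d (-0.17), Cd28 (-0.17) and Cd3g (-1.50) and above 0 for Cd4 (0.59) and Cd5 (0.24). Stromal and endothelial markers summed to 92.4 to 121 CPM in KO and 121 to 137 CPM in WT libraries. Pecam1 held most of this sum, with 10379 reads over the KO and 9491 over the WT libraries. Kdr had 3 and 4 reads and Col1a1 4 and 0. Of 4 tested, 0 were called by edgeR, with 2 lower at an unadjusted p under 0.05. Plasma-cell markers summed to 1527 to 2082 CPM in KO and 1289 to 1741 CPM in WT libraries, which overlapped. Of these 8 were tested, 0 were called by edgeR or DESeq2, and 1 was called higher by limma-voom. At an unadjusted p under 0.05, 2 plasma-cell markers were higher and 1 was lower. The part of these cells in the lower Ccr7, Gpr183 and S1pr1 was not tested.

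**Figure D2:**
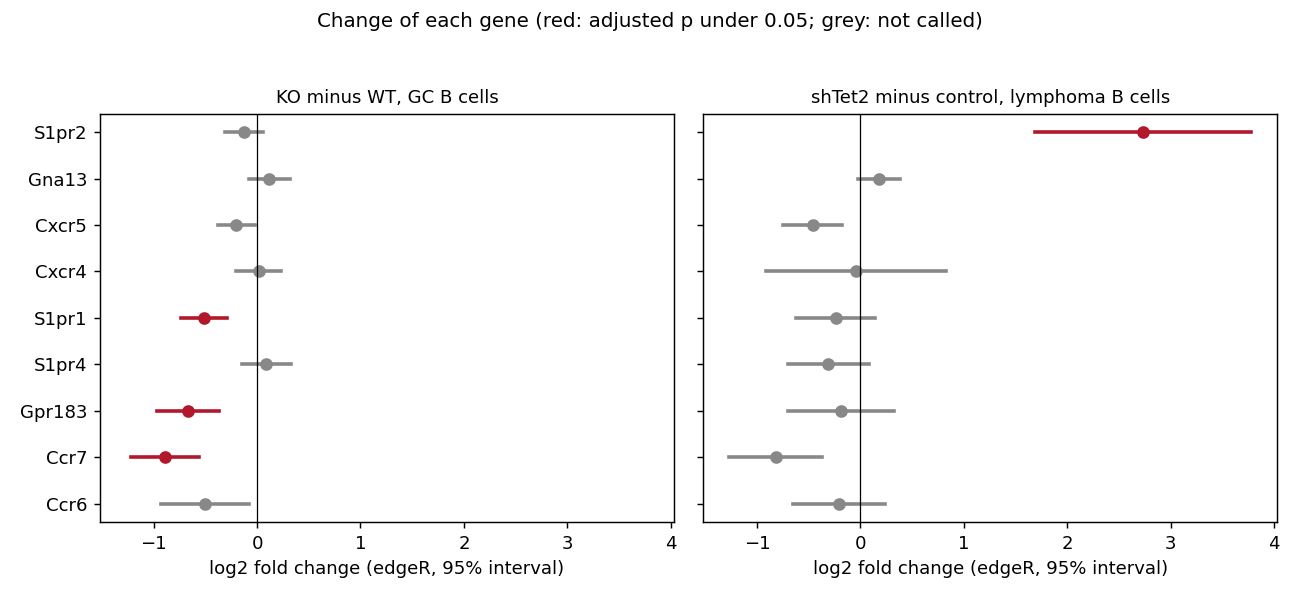
Log2 fold change of each gene with its 95% interval from edgeR, for KO minus WT in GC B cells on the left and shTet2 minus control in lymphoma B cells on the right; red marks an adjusted p under 0.05. In GC cells S1pr1, Gpr183 and Ccr7 lie below 0 at -0.51, -0.67 and -0.89, and in lymphoma cells S1pr2 lies above 0 at 2.73.

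In lymphoma B cells the shTet2 libraries were compared with the control libraries. The structural RNA share did not overlap between these groups, so it cannot be told apart from the shTet2 label. S1pr2, the confining receptor, was the 1 gene of the 9 that rose, and 0 fell, where 1.84% of the 12797 genes tested were called higher, 0.742% lower and 2.58% either way (edgeR, adjusted p under 0.05). At an unadjusted p under 0.05, Cxcr5 and Ccr7 were also lower (2 genes). DESeq2 called these 2 lower as well, and limma-voom called 0 lower. Groups did not overlap for 2 higher genes, S1pr2 and Gna13, and 2 lower ones, Ccr7 and Cxcr5, where 13.1% of all genes did not overlap and were higher and 8.03% did not overlap and were lower.

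S1pr2 had 350 and 446 reads in shTet2 replicates 1 and 2, against 21, 6, 34, 61 and 69 reads in control replicates 1 to 5. Scaled for depth and length, this was 16.8 and 27.4 RPKM in shTet2 libraries, against 2.39, 1.27, 1.80, 4.64 and 5.37 RPKM in control libraries. Both shTet2 libraries lay above every control library, and the control libraries themselves spanned a wide range. The log2 fold change was 2.73 (SE 0.44, 95% interval 1.69 to 3.78, edgeR adjusted p = 0.0297). The call rested on few libraries: the fold change stayed between 2.33 and 3.03 with each library left out, but the call was lost in some of these fits. The edgeR adjusted p was 0.217 without shTet2 replicate 2, 0.0783 without control replicate 1, 0.0547 without control replicate 2 and 0.0563 without control replicate 3, and it stayed under the threshold without each of the others. Without the filter on low counts it was 0.0608. DESeq2 gave an adjusted p of 0.000523 and limma-voom 0.0112. Where 1 shTet2 library is left out, the lone shTet2 library is assumed to vary like the controls.

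**Figure D3:**
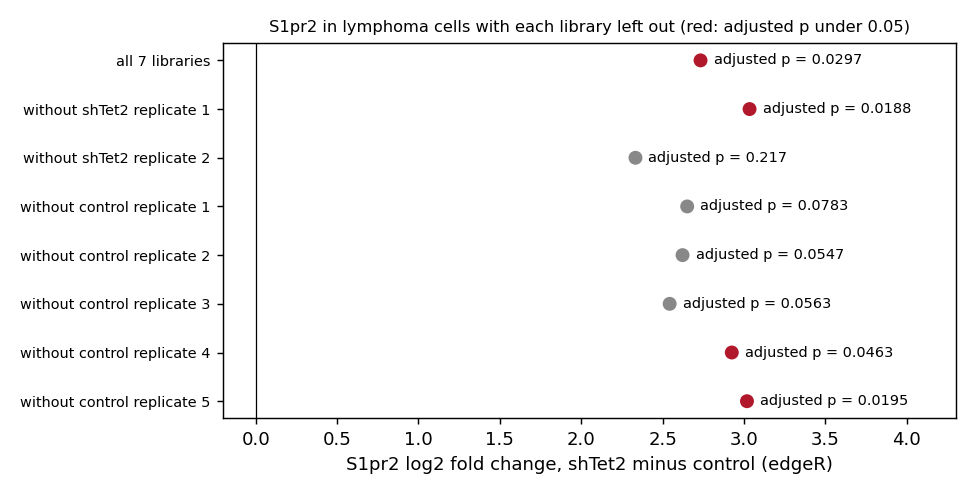
S1pr2 log2 fold change, shTet2 minus control lymphoma cells, with all libraries and with each left out; the adjusted p of edgeR stands beside each point, and red marks a value under 0.05. Every point lies between 2.33 and 3.03, and the adjusted p is highest, at 0.217, without shTet2 replicate 2.

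Even in shTet2 cells S1pr2 stayed far below its GC level, at a mean of 22.1 RPKM in shTet2 lymphoma cells beside 173 RPKM in KO and 180 RPKM in WT GC cells. Of 9 GC markers 8 were tested between the lymphoma groups. Their median log2 fold change was 1.76 beside -0.0041 over all genes, 6 were higher at an unadjusted p under 0.05, and 1, Fas (1.29, edgeR adjusted p = 0.0148), was called. Bcl6, the transcription factor that defines GC B cells, was at 43.0 ± 10.6 RPKM in shTet2 (SD, n = 2) and 42.5 ± 3.63 RPKM in control libraries (SD, n = 5), with a log2 fold change of -0.02. Plasma-cell markers summed to 829.1 to 1309 CPM in shTet2 and 545 to 793 CPM in control libraries, with Prdm1 (1.21) and Xbp1 (0.81) called higher of 7 tested. Naive and memory markers summed to 3748 to 4472 CPM in shTet2 and 4846 to 5062 CPM in control libraries, with 0 called by edgeR, 2 higher and 5 lower at an unadjusted p under 0.05, 2 lower by DESeq2 and 0 by limma-voom. The part of these cell states in the S1pr2 difference was not tested.

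Gna13 was at 51.0 and 46.4 RPKM in shTet2 libraries, against 44.7, 38.0, 40.0, 42.2 and 45.3 RPKM in control libraries. The groups did not overlap and the log2 fold change of 0.18 (SE 0.09, 95% interval -0.02 to 0.39) was not called (edgeR adjusted p = 0.325). Ccr7 was at 63.2 and 37.2 RPKM in shTet2 libraries, against 78.8, 72.4, 85.4, 93.5 and 103 RPKM in control libraries. Both shTet2 libraries lay below every control library, and the log2 fold change was -0.82 (SE 0.20, 95% interval -1.27 to -0.37), short of a call in edgeR (adjusted p = 0.0720) and called by DESeq2 (adjusted p = 0.00174). Cxcr5 was at 193 and 131 RPKM in shTet2 libraries, against 223, 215, 227, 221 and 206 RPKM in control libraries. It too lay below every control library in both shTet2 libraries, with a log2 fold change of -0.46 (SE 0.13, 95% interval -0.74 to -0.18, edgeR adjusted p = 0.0839) and a call by DESeq2 (adjusted p = 0.0284).

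The remaining 5 receptors overlapped between the lymphoma groups. S1pr1 was at 141 and 90.2 RPKM in shTet2 and 112 to 153 RPKM in control libraries (log2 fold change -0.24, SE 0.17, edgeR adjusted p = 0.486). S1pr4 was at 31.7 and 21.3 RPKM in shTet2 and 26.4 to 38.4 RPKM in control libraries (-0.31, SE 0.18). Gpr183 was at 89.9 and 53.2 RPKM in shTet2 and 62.3 to 96.1 RPKM in control libraries (-0.19, SE 0.22). In each of these genes shTet2 replicate 2 was the lower of the pair. Ccr6 was at 70.1 and 39.2 RPKM in shTet2 and 54.7 to 69.2 RPKM in control libraries (-0.21, SE 0.20), and Cxcr4 at 196 and 105 RPKM in shTet2 and 108 to 229 RPKM in control libraries (-0.04, 95% interval -0.91 to 0.82). Across the set, 8 of the 9 genes were lower in shTet2 replicate 2 than in replicate 1, by ratios from 0.534 for Cxcr4 to 0.910 for Gna13, while S1pr2 was higher by 1.64. Without shTet2 replicate 1, 5 genes of the set were called lower (S1pr1 -0.61, S1pr4 -0.64, Cxcr5 -0.77, Ccr6 -0.70 and Ccr7 -1.26), while without shTet2 replicate 2 the same edgeR fit called none of them lower, with Cxcr5 at -0.21 and Ccr7 at -0.49. shTet2 replicate 2 also differed in other cells' markers, with myeloid markers at 349 CPM against 104 CPM in shTet2 replicate 1 and 103 to 159 CPM in control libraries, and the part of this in the receptor values was not tested.

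The KO and shTet2 effects were compared in 1 model of all 14 libraries, as the GC effect (KO minus WT) minus the lymphoma effect (shTet2 minus control). S1pr2 was the 1 gene of the 9 whose effects differed, at -2.81 on the log2 scale (SE 0.39, 95% interval -3.65 to -1.97, edgeR adjusted p = 0.00145), where 4.99% of 15441 genes were called, 3.39% lower and 1.61% higher. It was called with each of the 14 libraries left out, at -3.12 to -2.38 with adjusted p up to 0.0133, and by DESeq2 and limma-voom. Without shTet2 replicate 1, S1pr4 (0.76) and Cxcr5 (0.60) were called higher as well. Ccr7 had a difference of -0.04 (95% interval -0.62 to 0.54), with -0.89 in GC and -0.82 in lymphoma cells. The difference for Gpr183 was -0.45 (95% interval -1.02 to 0.12) and for S1pr1 -0.24 (95% interval -0.67 to 0.19), so the calls in GC cells are not shown to be particular to GC cells.

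Between control lymphoma cells and WT GC cells 8 of the 9 genes were called, 6 higher and 2 lower, but 80.7% of all 15441 genes were called (40.2% higher, 40.4% lower). The cell population, the count table, the depth and the structural RNA share of the libraries cannot be told apart. Of 11 naive and memory markers 9 were called higher and 2 lower, and of 8 GC markers tested 0 were higher and 8 lower. Of 12 T-cell markers 11 were called higher and 1 lower, though their sum was 46.5 to 103 CPM in control lymphoma and 185 to 234 CPM in WT GC libraries. The part of these cell types and states in the receptor values was not tested. The receptors for the follicle edge, exit, the T zone and CCL20 were higher in control lymphoma cells: Gpr183 by 3.58, S1pr1 by 2.58, Ccr7 by 2.44 and Ccr6 by 2.15 on the log2 scale (edgeR, SE 0.15 to 0.22). Cxcr5 was higher by 0.92 (SE 0.11) and S1pr4 by 0.63 (SE 0.14). S1pr2 was lower by the largest amount in the set, at -5.73 (SE 0.28, 95% interval -6.32 to -5.13, edgeR adjusted p = 3.88e-10). Gna13 was at -0.54 (SE 0.09), but at -0.13 and not called with upper-quartile scaling, which put the median of all genes at 0.38, beside -0.03 with the TMM scaling used. Cxcr4 was at 0.40 (SE 0.24, edgeR adjusted p = 0.144), and was called higher by DESeq2 (0.53) and with upper-quartile scaling (0.81).

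Ratios within a library do not depend on how libraries are scaled to each other. The S1pr2 to S1pr1 ratio sets the confining receptor against the exit receptor for the same ligand. S1pr2 stood at 11.8, 9.92, 10.1 and 9.02 times the S1pr1 level in KO GC libraries and at 8.31, 8.85 and 6.28 times it in WT GC libraries, with no overlap (mean log2 3.34 ± 0.16, n = 4, against 2.95 ± 0.26, n = 3; difference 0.39, exact two-sided permutation p = 0.0571). In lymphoma cells the balance was turned round, with S1pr2 at 0.119 and 0.304 of S1pr1 in shTet2 libraries and 0.0104 to 0.0363 in control libraries (mean log2 -2.40 ± 0.96, n = 2, against -5.63 ± 0.76, n = 5; difference 3.23, exact permutation p = 0.0952). Ccr7 to Cxcr5, the T zone against the follicle, averaged -3.55 ± 0.27 in KO and -2.87 ± 0.27 in WT GC libraries (log2, exact permutation p = 0.0571, n = 4 and 3). It averaged -1.71 ± 0.15 in shTet2 and -1.34 ± 0.23 in control lymphoma libraries (exact permutation p = 0.0952, n = 2 and 5). The groups did not overlap in either case, and the KO and shTet2 libraries held the lower values. Cxcr4 to Cxcr5, the dark zone against the light zone and follicle, overlapped in both comparisons, at 0.21 ± 0.22 in KO and -0.01 ± 0.27 in WT libraries and at -0.15 ± 0.25 in shTet2 and -0.57 ± 0.46 in control libraries (log2, exact permutation p = 0.286 in each). The smallest p these designs allow is 0.0571 in GC and 0.0952 in lymphoma cells. Benjamini-Hochberg adjustment of the permutation p over the 6 tests gave 0.143 for S1pr2 to S1pr1 and Ccr7 to Cxcr5 and 0.286 for Cxcr4 to Cxcr5.

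**Figure D4:**
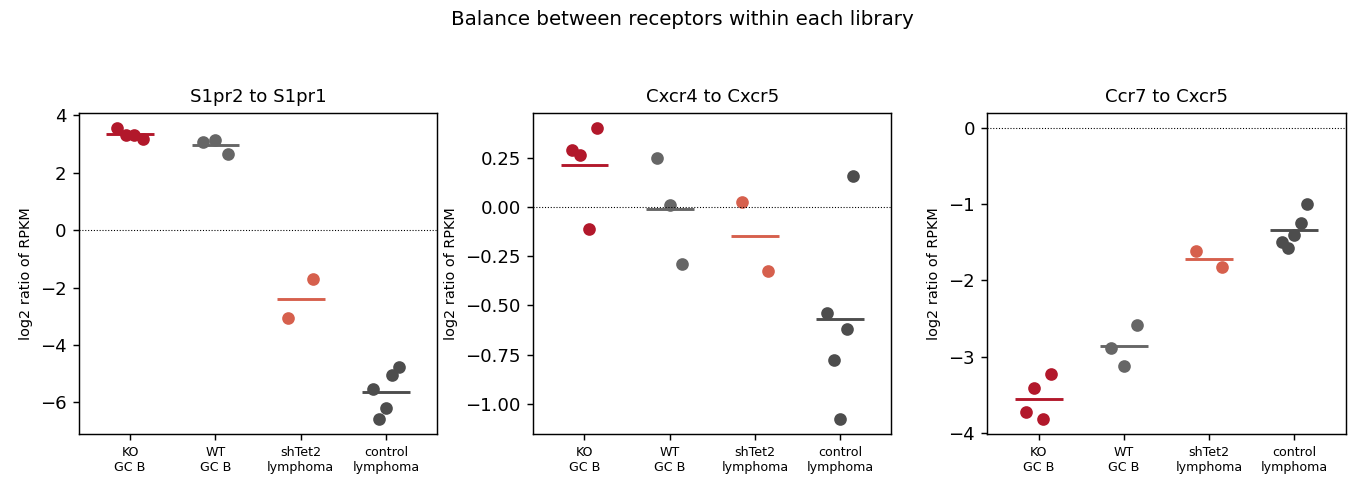
Log2 ratio of RPKM within each library for S1pr2 to S1pr1, Cxcr4 to Cxcr5 and Ccr7 to Cxcr5; points are libraries, solid lines group means, and the dotted line equal levels. S1pr2 lies above S1pr1 in all GC libraries and below it in all lymphoma libraries, and the Ccr7 to Cxcr5 ratio is lower in KO than in WT and lower in shTet2 than in control libraries.

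The genes whose profile over the 14 libraries was most like each member's were found among 9470 genes, by the root mean square difference of centred log2 levels. S1pr2 was closest to Kif2c (0.30) and Birc5 (0.33), both genes of mitosis, against a spread of 2.79 for S1pr2 itself. Since these genes were picked on the same libraries, their group values only describe the likeness. Kif2c averaged 29.2 RPKM in KO and 28.4 RPKM in WT GC libraries, and 3.49 RPKM in shTet2 and 0.634 RPKM in control lymphoma libraries. Birc5 averaged 5.25 RPKM in shTet2 and 1.30 RPKM in control lymphoma libraries. The closest genes to the others were Scml4 and Neat1 for S1pr1, Ttc28 and Notch2 for Gpr183, Rin3 and Ski for Ccr7, Arhgef18 and Arhgef3 for Ccr6, Fto and Tax1bp1 for Cxcr5, Dnajb1 and Mospd1 for Cxcr4, Zbtb7b and Trim8 for S1pr4, and Yeats2 and Ipo9 for Gna13. The libraries of a table share a cell population, a depth range and a structural RNA share, and each profile includes the step between the tables.

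Genes that work beside these receptors were read from 6 lists, also chosen with earlier results of these data known. Among 18 other positioning and adhesion receptors 17 were tested in GC cells, 4 fell and 0 rose in KO cells, with a median log2 fold change of -0.26 beside 0.01 over all genes. At an unadjusted p under 0.05 the counts were 9 lower and 1 higher, and DESeq2 and limma-voom each called 4 lower and 0 higher. Cxcr3, the receptor for interferon-induced chemokines, had 707 reads over the 4 KO libraries and 3871 over the 3 WT libraries (-2.89, SE 0.12, edgeR adjusted p = 3.97e-09). S1pr5, an S1P receptor known from natural killer cells, had 15 reads over the KO libraries and 154 over the WT libraries (-3.77, SE 0.47, edgeR adjusted p = 0.000141). Cnr2, a cannabinoid receptor that places marginal zone B cells, was at -0.48 (SE 0.10), and its adjusted p in edgeR was 0.0634 without WT replicate 1 and 0.0674 in 1 model of all groups. In lymphoma cells 15 of this list were tested and 0 were called by edgeR or limma-voom (3 higher and 4 lower at an unadjusted p under 0.05, 1 higher and 2 lower by DESeq2).

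Of 6 receptor kinases and arrestins, which switch such receptors off, Grk5 fell in KO GC cells (-1.26, SE 0.14, edgeR adjusted p = 7.15e-05), at 1.73 ± 0.0859 RPKM in KO (SD, n = 4) and 3.97 ± 0.335 RPKM in WT libraries (SD, n = 3). The 7 genes of the G12/13 branch, the partners of Gna13, had 0 calls in GC cells and 0 in lymphoma cells by edgeR, DESeq2 and limma-voom, with 1 lower in each at an unadjusted p under 0.05. Among them Arhgef1, the exchange factor that acts after Gna13, was at 164 ± 17.3 RPKM in KO and 141 ± 6.53 RPKM in WT libraries (0.16, SE 0.10), and at 53.2 ± 0.0352 RPKM in shTet2 and 61.1 ± 3.20 RPKM in control libraries (-0.23, SE 0.09). The 15 tested genes of the Gi branch, through which the attracting receptors signal, had 0 calls by edgeR and limma-voom in either cell type, with 1 lower by DESeq2 in GC cells, and 1 higher and 2 lower in GC cells and 1 higher and 4 lower in lymphoma cells at an unadjusted p under 0.05. A list of 16 genes covered ligands and the metabolism and transport of ligands. Its chemokine genes Cxcl12, Cxcl13, Ccl19, Ccl20 and Ccl21a had too few reads to be tested. Among the rest, 7 were tested in GC and 8 in lymphoma cells, and 0 were called by edgeR, DESeq2 or limma-voom. At an unadjusted p under 0.05, 1 was higher and 2 lower in GC cells and 1 was higher and 1 lower in lymphoma cells.

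Transcription factors known to act on these receptors had 0 calls by edgeR or limma-voom in either comparison, of 10 tested in each. At an unadjusted p under 0.05, 1 was higher and 2 lower in GC cells and 5 were lower in lymphoma cells, and DESeq2 called 1 higher in GC and 3 lower in lymphoma cells. Klf2, which drives S1pr1, was at 40.8 ± 8.04 RPKM in KO and 48.1 ± 9.80 RPKM in WT libraries (-0.30, SE 0.18), and at 92.9 ± 42.0 RPKM in shTet2 and 174 ± 34.5 RPKM in control libraries (-0.94, SE 0.31, edgeR adjusted p = 0.171). Bach2 was the 1 factor whose effects differed between GC and lymphoma cells (0.94, SE 0.19, edgeR adjusted p = 0.00618), with 0.33 in GC and -0.59 in lymphoma cells, neither called. For the other receptors the effects differed in 3 genes, Cxcr3 (-3.31, SE 0.20), S1pr5 (-5.25, SE 0.90) and Itgb2 (-0.80, SE 0.18), and for the kinases in Grk5 (-1.50, SE 0.22). The S1pr5 value rests on few lymphoma reads, 20 over the shTet2 and 11 over the control libraries. S1pr5 did not pass the filter in the lymphoma comparison. In the stretch of 100000 bases on each side of S1pr2, a window chosen after the values were seen, 9 other genes were tested between the lymphoma groups. Their log2 fold changes ran from -0.80 to 0.58, and 1, the DNA methyltransferase gene Dnmt1, was called (0.58, SE 0.13, edgeR adjusted p = 0.0344), at 45.9 RPKM in shTet2 and 29.9 RPKM in control libraries.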

How the data were processed

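Per the labels' protocols, spleen cell RNA went into stranded TruSeq mRNA libraries. Per the submitters' processing notes, STAR 2.3.0e and the build GRCm38.p3 were used. The authors deposited raw counts per gene name over GENCODE exons from featureCounts 1.5.1, with neither a strand nor a paired-end option, per the file headers. Libraries were grouped by their titles. The counts were tested with edgeR 4.0.16 (R 4.3.3; TMM, filterByExpr, robust quasi-likelihood fits, Benjamini-Hochberg adjustment over all genes tested, threshold 0.05). For levels, counts were scaled by TMM over all 14 libraries without 12 structural RNA rows and divided by exon length (RPKM). Ratios used RPKM + 0.01 and exact two-sided permutation tests. The fits were tested on simulated data. Named genes were the 9 members, up to 3 called genes per list and direction, and the 2 nearest profiles per member, at a mean of at least 2 CPM in each table, leaving out predicted, clone-based, mitochondrial, receptor segment, Y-linked and Xist rows. Marker genes were named as checks. Alternatives were other scalings, DESeq2 1.42.0, limma-voom (limma 3.58.1), other filters, 1 model of all groups, a replicate block and each library left out. The members and lists were chosen with earlier results of these data known. Not every called list gene is reported here.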

Additional observations from a re-analysis of the deposited data

Results flagged for a closer look

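S1pr2 was flagged because its KO and shTet2 effects differed in a direct test, at -2.81 on the log2 scale (GC effect minus lymphoma effect, SE 0.39, edgeR adjusted p = 0.00145). The 2 effects were -0.12 in GC B cells and 2.73 in lymphoma B cells. The GC marker Fas and the plasma-cell markers Prdm1 and Xbp1 were called higher in the same shTet2 lymphoma libraries, and the part of such markers in the S1pr2 difference was not tested. No library of the KO or control lymphoma groups stood apart from its group for any of the 9 genes by Dixon's test; the WT and shTet2 groups are too small for it.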

How the results depend on the processing

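With each library left out, genes called numbered 149 to 362 higher and 453 to 582 lower in GC cells, 82 to 1303 higher and 18 to 1178 lower in lymphoma cells, 64 to 801 higher and 219 to 1200 lower for the difference between effects, and 5800 to 6314 higher and 5910 to 6293 lower between control lymphoma and WT GC cells; in GC cells, leaving out KO replicate 5 gave 154 higher genes and leaving out WT replicate 3 gave 149, the lymphoma counts were 1303 and 1178 without shTet2 replicate 1 and, without shTet2 replicate 2 or control replicates 1, 2, 3 or 4, 82 to 148 higher and 18 to 41 lower, and the difference counts were 801 and 1200 without shTet2 replicate 1, 64 and 219 without shTet2 replicate 2, and 118 and 337 without WT replicate 3, with 165, 134 and 137 higher without KO replicate 3, KO replicate 5 and control replicate 3; members called ranged from 0 to 1 higher and 0 to 5 lower in lymphoma cells and from 0 to 2 higher for the difference. Log2 fold changes that crossed 0 were Cxcr4 in GC cells (-0.089 to 0.098), S1pr1 (-0.61 to 0.047), Gpr183 (-0.62 to 0.14), Cxcr4 (-0.58 to 0.34), Ccr6 (-0.70 to 0.15) and Cnr2 (-0.66 to 0.014) in lymphoma cells, and S1pr1 (-0.49 to 0.13), Cxcr4 (-0.26 to 0.62), Ccr6 (-0.58 to 0.23), Ccr7 (-0.33 to 0.41) and Gna13 (-0.10 to 0.043) for the difference. The log2 ratio differences ranged from 0.24 to 0.49 and 2.55 to 3.91 (S1pr2 to S1pr1, GC and lymphoma), 0.08 to 0.35 and 0.25 to 0.61 (Cxcr4 to Cxcr5), and -0.81 to -0.54 and -0.47 to -0.26 (Ccr7 to Cxcr5). DESeq2 called 443 genes higher in GC cells, 241 lower and 2 members lower in lymphoma cells, and 479 higher for the difference. Without a filter on low counts 504 genes were higher in GC cells, and 521 higher, 261 lower, 0 members higher and 1 lower in lymphoma cells. In 1 model of all groups 388 genes and 1 member were lower in GC cells, and 662 genes higher, 178 lower and 2 members lower in lymphoma cells. Replicate numbers were shared between groups, but same-numbered libraries did not deviate together (correlations 0.060 and -0.055 in GC, -0.094 and 0.0086 in lymphoma cells), so the numbers mark no known pairing; with the replicate block 353 genes were lower in GC cells, 3 higher and 1 lower in lymphoma cells, members called higher were 0 since S1pr2 was at 3.39 with an edgeR adjusted p of 0.110, Cnr2 in GC cells was at -0.33 (edgeR adjusted p = 0.176), and Gpr183 and Cxcr4 were at 0.041 and 0.011 in lymphoma cells. The Ccr7 difference was 0.014 with limma-voom, and upper-quartile scaling left 1 member lower between control lymphoma and WT GC cells. The median level of the 9 genes was 24.3, 23.3, 58.3 and 80.2 RPKM in KO, WT, shTet2 and control libraries, 14.1, 13.7, 35.3 and 49.0 RPKM with structural rows kept, and 57.8, 57.3, 196 and 269 as TPM. The cause of these changes was not tested. The lymphoma values rest on 2 shTet2 libraries and on control libraries with as few as 1523020 counts outside structural rows.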
